A study of Mus musculus with 8 samples.

Results

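The 10 genes described here are targets of p53 that act in metabolism and nutrient sensing, and they were taken by name from the 49585 genes of a read count table. They are Sesn1, Sesn2, Sesn3 and Ddit4, which restrain the growth kinase complex mTORC1, Prkab1, a subunit of the energy sensor AMPK, Tigar and Gls2, enzymes of sugar phosphate and glutamine metabolism, Fdxr and Sco2, which serve mitochondrial electron transfer, and Lpin1, which acts on phosphatidate. RNA was sequenced from the livers of 8 male mice, 3 LP+/+, 2 LPfl/+ and 3 LP245/+, which had been fed HFCD for 3 months from day 21 of life, a diet rich in fat and without added choline that loads the liver with lipid. In LP245/+ mice (Alb-CreTG, Trp53wm-R245W/+), a Cre recombinase under the albumin promoter switches 1 of the 2 Trp53 alleles from wild-type to the missense mutant R245W, and in LPfl/+ mice (Alb-CreTG, Trp53fl/+) it deletes 1 allele. The other allele stays wild-type in both, and Alb-Cre acts in hepatocytes and cholangiocytes, so the remaining cells of the liver keep wild-type p53. The LP+/+ livers were Alb-Cre0 by their labels, replicates 1 and 2 with an unrecombined Trp53fl/+ and replicate 3 with an unrecombined Trp53wm-R245W/+ allele. The study describes its LP+/+ cohort as carrying Alb-Cre and no altered Trp53 allele, and the labels were followed here. By the labels, comparisons against LP+/+ also set livers with Cre against livers without it. An effect of Cre cannot be told apart from that of the Trp53 allele in them. The question of the design was how the expression of p53 targets differs between livers with 1 deleted and with 1 mutant allele.

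p53 is a transcription factor that is kept scarce by Mdm2 and accumulates under stress, and it is best known for arresting the cell cycle and inducing apoptosis. It also induces genes that adjust metabolism: sestrins and Ddit4 slow protein synthesis when amino acids, oxygen or energy are short, Tigar diverts sugar phosphates toward NADPH, Gls2 turns glutamine into glutamate in liver mitochondria, and Lpin1 makes diacylglycerol and coactivates genes of fatty acid oxidation. Many of these genes answer to other inputs of the liver as well, among them feeding, glucocorticoids, ATF4 and the circadian clock.

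The genotypes were checked on the known p53 target Cdkn1a, the cell cycle inhibitor p21. Its normalized read counts, which are counts divided by DESeq2 size factors, were 188, 138 and 184 across LP+/+ livers, 75.0 and 100 across LPfl/+ and 14.5, 25.3 and 27.5 across LP245/+. The genotypes did not overlap in this gene. For Cdkn1a, the log2 fold change from LP+/+ to LP245/+ was -2.91 (standard error, SE, 0.27), with an adjusted p of 0.0155 by edgeR's quasi-likelihood test with Benjamini-Hochberg adjustment. Trp53 itself had 226, 258 and 202 normalized counts across LP+/+ livers, 127 and 178 across LPfl/+ and 316, 294 and 193 across LP245/+, where the mutant transcript is counted too. LPfl/+ livers lay below all others in Trp53, with a log2 fold change of -0.58 (SE 0.24, adjusted p = 0.718 by edgeR) against LP+/+.

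The livers held between 26304526 and 31370714 counts each, and all marker lists of liver cell types were detected. The sum of 8 hepatocyte markers was between 2935740 and 4261490 normalized counts in LP+/+, between 2926160 and 3125010 in LPfl/+, and between 3002700 and 3525830 in LP245/+. The 5 markers of neighboring muscle and fat summed to between 0 and 5.80. Of the markers of 7 liver cell types, 0 had an unadjusted p below 0.05 by edgeR in LP245/+ compared with LP+/+. In LPfl/+ compared with LP+/+, 1 hepatocyte and 1 endothelial marker were lower and 1 neutrophil marker higher at that level. In LP245/+ compared with LPfl/+, 2 macrophage markers and 1 neutrophil marker were lower, and 1 hepatocyte, 1 stellate cell and 1 endothelial marker higher. The part of these markers in the results below was not tested. The library numbers in the labels fall into a first series, with the LP245/+ livers and LP+/+ replicates 2 and 3, and a second series, with LP+/+ replicate 1 and both LPfl/+ livers. The first principal component, with 31.1% of the variance, separated the series, so LP245/+ and LPfl/+ cannot be told apart from the series except through the LP+/+ livers. In bulk tissue, fewer cells of a type and less RNA per cell cannot be told apart.

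The promoters are shown for the gene that passed the test, Cdkn1a, and for 3 metabolic targets. Of these, Fdxr and Lpin1 are those on which the description below turns most. Sesn1 was the only metabolic target with a match to the p53 half-site, and its printed window is the one that holds the match. The sequences are the RefSeq bases before the start site on GRCm38.p6, without bases that lie in an annotated exon, and capitals mark matches to the consensus of the p53 half-site, the DNA element that a pair of p53 molecules binds.

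Cdkn1a, chr17:29090729-29090975, plus strand: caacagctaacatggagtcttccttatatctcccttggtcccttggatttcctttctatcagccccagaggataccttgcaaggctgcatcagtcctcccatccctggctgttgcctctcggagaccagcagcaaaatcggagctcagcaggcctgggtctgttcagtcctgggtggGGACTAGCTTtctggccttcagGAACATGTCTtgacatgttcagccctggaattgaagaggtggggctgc
Sesn1, chr10:41887189-41887438, plus strand: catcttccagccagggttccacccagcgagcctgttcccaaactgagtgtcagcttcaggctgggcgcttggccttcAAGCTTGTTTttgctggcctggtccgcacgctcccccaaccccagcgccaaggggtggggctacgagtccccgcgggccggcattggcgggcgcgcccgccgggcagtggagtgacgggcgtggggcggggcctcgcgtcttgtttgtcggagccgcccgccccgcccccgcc
Fdxr, chr11:115277051-115277219, minus strand: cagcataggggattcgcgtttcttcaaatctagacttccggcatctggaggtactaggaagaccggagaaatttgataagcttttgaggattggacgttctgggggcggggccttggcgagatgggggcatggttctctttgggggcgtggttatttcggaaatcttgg
Lpin1, chr12:16610967-16611216, minus strand: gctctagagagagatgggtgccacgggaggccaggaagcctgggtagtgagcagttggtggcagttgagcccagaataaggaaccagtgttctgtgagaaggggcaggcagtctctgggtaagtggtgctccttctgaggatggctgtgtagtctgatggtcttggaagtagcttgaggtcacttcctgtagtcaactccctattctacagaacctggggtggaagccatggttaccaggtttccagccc

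The half-site occurred in 8.36% of 32851 promoter windows of 250 bases before and 50 bases after a start site, searched on both strands. It occurred in 1 of the 10 windows of the metabolic targets, a Sesn1 window, where it began at position -173 from the start site. Of the 2 Cdkn1a windows, the one printed above held 2, at positions -73 and -51 from its own start site. The other window, which begins farther downstream at chr17:29093519, held none but had an NRF2 element. The printed Fdxr and Lpin1 promoters held no half-site and none of the other motifs searched. Those were the E-box CACGTG, found in 7.15% of all windows and in the Sco2 window, the D-box TTATGTAA of clock output factors, in 0.938%, the ATF4 element TGATGNAA, in 3.97%, the FoxO element TGTTTAC, in 3.65% and in another Sesn1 window, and the NRF2 element TGACNNNGC, in 12.4% and in the Sesn2 window. RefSeq windows matched 9 of the 10 genes, all but Gls2. A match is a description of the letters and not a binding site. Bases outside these windows were not searched, so elements farther from the start sites would be missed. The study searched a much longer stretch upstream of the genes in its own list.

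None of the 9 metabolic targets with enough counts to be tested passed the cutoff of the study, adjusted p up to 0.05 with a log2 change of 1 or more either way, in any comparison among the genes kept by the low-count filter. In LP245/+ compared with LP+/+, 0 of 9 passed, against 0.00606% of all 16496 genes tested, and 1 of 9, Fdxr, had an unadjusted p below 0.05, against 5.93% of all genes and by DESeq2 0 of 9. In LPfl/+ compared with LP+/+, 0 of 9 passed, against 0% of all genes, and at an unadjusted p below 0.05 stood Gls2 alone, against 6.89% of all genes and by DESeq2 also 1 of 9. In LP245/+ compared with LPfl/+, 0 of 9 passed, against 0% of all genes, and Lpin1 alone had an unadjusted p below 0.05, against 8.51% of all genes and again 1 of 9 by DESeq2. The smallest adjusted p of the group in these comparisons was 0.818, 0.704 and 0.454 by edgeR. The tenth gene, Sco2, had no counts and was not tested.

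Log2 fold changes within the group pointed both ways. Against LP+/+, 6 of the 9 genes were lower and 3 higher in LP245/+, with a median of -0.14 compared with 0.0029 over all genes tested, and 7 were lower and 2 higher in LPfl/+, with a median of -0.20 compared with -0.0010. The comparisons share the LP+/+ livers. The livers of both genotypes did not overlap in 1 gene (Fdxr) in LP245/+ compared with LP+/+, against 11.8% of all genes, in 2 genes (Sesn3 and Gls2) in LPfl/+ compared with LP+/+, against 25.1%, and in 2 genes (Gls2 and Lpin1) in LP245/+ compared with LPfl/+, against 25.4%. The highest of all 9 in LP245/+ was Lpin1, at 0.76, and the lowest was Ddit4, at -0.48.

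**Figure D1:**
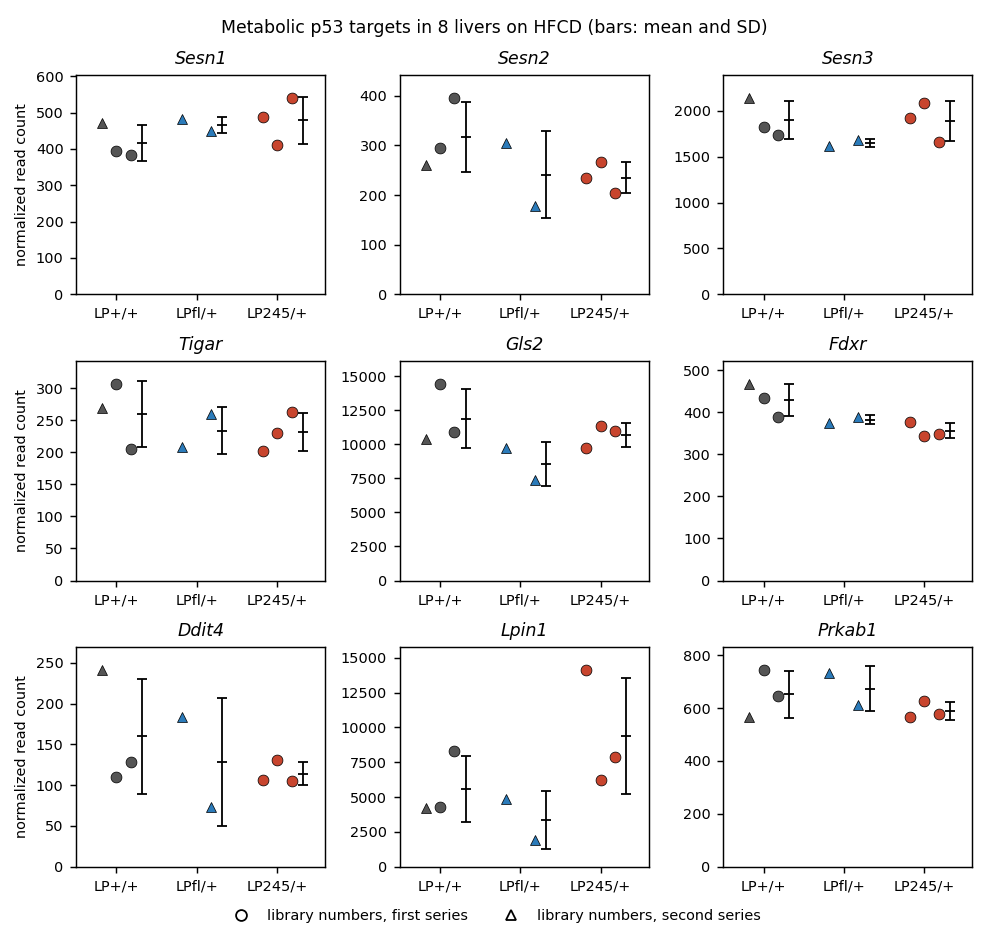
Normalized read counts (vertical axis, linear from 0) of the 9 detected metabolic p53 targets in each liver, by genotype; circles are libraries of the first series of library numbers, triangles of the second, and bars give the mean and SD. Fdxr is the gene in which every LP245/+ liver lies below every LP+/+ liver, and the 2 LPfl/+ livers stand far apart in Lpin1, Ddit4 and Sesn2.

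**Figure D2:**
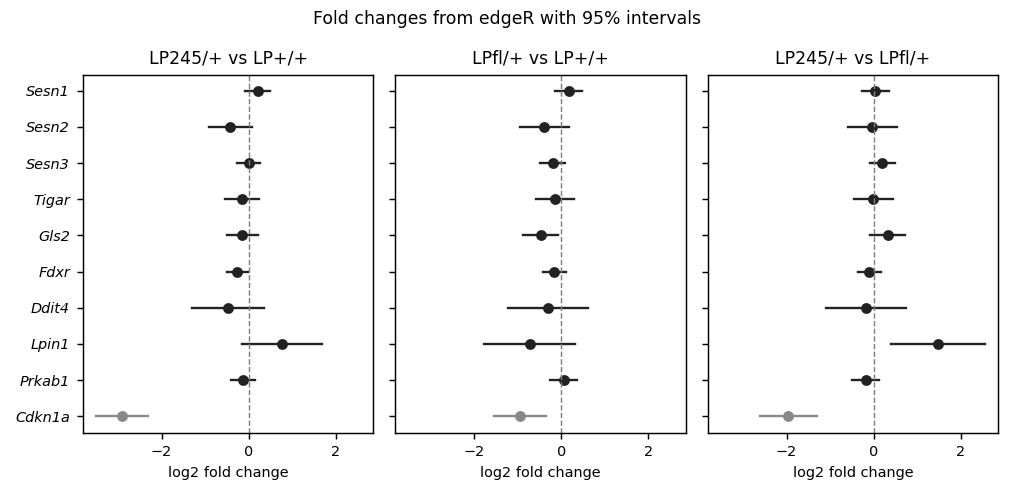
Log2 fold changes (points) with 95% intervals (lines) from edgeR for the 9 metabolic targets and, in gray, Cdkn1a in the 3 comparisons. The intervals exclude 0 for Fdxr in LP245/+ compared with LP+/+, for Gls2 in LPfl/+ compared with LP+/+ and for Lpin1 in LP245/+ compared with LPfl/+, and those of Cdkn1a exclude 0 in all 3.

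The abundance of the 9 detected transcripts differed widely in livers without a recombined allele. Per kilobase of exon, Gls2 led with 3422 ± 631 normalized counts in LP+/+ (SD, n = 3), followed by Lpin1 with 579 ± 245 and Prkab1 with 213 ± 28.8, and these 3 did not overlap with their neighbors in the order. Fdxr at 153 ± 13.8, Sesn3 at 125 ± 13.8, Sesn1 at 105 ± 12.3, Sesn2 at 91.1 ± 20.2, Ddit4 at 91.0 ± 40.2 and Tigar at 71.1 ± 14.0 followed, and each of these overlapped with the next over the LP+/+ livers. Over all 8 livers, the coefficient of variation of the normalized counts was 57.6% for Lpin1, 39.5% for Ddit4 and 25.1% for Sesn2, and between 10.6% and 18.6% for the other 6. The least variable was Fdxr.

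The sestrins dampen mTORC1 by holding the GATOR2 complex when leucine is scarce, and they also limit peroxides. Sesn1, which p53 and FoxO factors induce, had 472, 395 and 382 normalized counts across LP+/+ livers, 481 and 450.4 across LPfl/+ and 487, 410.2 and 539.7 across LP245/+. The genotypes overlapped, and both genotypes with a recombined allele had the higher mean. The log2 fold change against LP+/+ was 0.21 in LP245/+ (SE 0.13, unadjusted p = 0.128 by edgeR) and 0.17 in LPfl/+ (SE 0.14).

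Sesn2, the sestrin most responsive to ATF4 and oxidative stress, had 259.9, 295 and 395 counts across LP+/+ livers, 304 and 179 across LPfl/+ and 234, 267 and 205 across LP245/+. LP+/+ replicate 3 was the highest liver, and only LP245/+ replicate 2 and LPfl/+ replicate 1 reached into the LP+/+ range. The log2 difference of LP245/+ from LP+/+ was -0.42 (SE 0.22, unadjusted p = 0.0902 by edgeR) and -0.23 without LP+/+ replicate 3. Sesn3, a FoxO target in liver, had 2140.0, 1827 and 1739 counts across LP+/+ livers, 1617 and 1679 across LPfl/+ and 1923, 2085 and 1659.8 across LP245/+. Both LPfl/+ livers lay below all LP+/+ livers in Sesn3, with a log2 fold change of -0.20 (SE 0.13), while the value of LP245/+ was 0.0022 (95% interval -0.26 to 0.26). With the series as a covariate, Sesn3 had -0.37 (SE 0.16, unadjusted p = 0.0424 by edgeR) in LPfl/+ compared with LP+/+, where 5.37% of all genes were below 0.05, and 0.46 (SE 0.20, unadjusted p = 0.042 by edgeR) in LP245/+ compared with LPfl/+, where 5.27% were. Both values rest on LP+/+ replicate 1, the only LP+/+ liver of the second series and the highest liver in Sesn3. Without that liver, LPfl/+ compared with LP+/+ gave -0.10 with no covariate.

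Ddit4, or REDD1, activates the TSC complex upstream of mTORC1 and is induced by hypoxia, glucocorticoids and fasting. It was counted at 241, 110.5 and 128 across LP+/+ livers, at 183 and 72.7 across LPfl/+ and at 106, 130.3 and 105 across LP245/+. LP+/+ replicate 1 was far above the other LP+/+ livers, and the log2 fold change of -0.48 (SE 0.37) in LP245/+ was -0.054 without it and -0.066 as a ratio of means within the first series. The 3 genes whose pattern over the 8 livers was most like that of Ddit4 were Rpusd3, Gfra2 and Igfbp1, with Pearson r of 0.97, 0.94 and 0.94. Igfbp1, a liver gene of the fasting and insulin response, was also highest in LP+/+ replicate 1. It had 3234 normalized counts there and 542 and 1199 in LP+/+ replicates 2 and 3.

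Of 40 tested genes of mTORC1 and amino acid sensing other than the sestrins and Ddit4, 0 had an unadjusted p below 0.05 by edgeR in LP245/+ compared with LP+/+, with a median log2 fold change of 0.013 and a range from -0.42 to 0.22. In LPfl/+ compared with LP+/+, 2 were higher and 0 lower at that level, against 4.22% of all genes in the higher direction. They included Mios, a subunit of the GATOR2 complex that sestrins bind, which had a log2 fold change of 0.31 (SE 0.11, adjusted p = 0.697 by edgeR) and of 0.23 (SE 0.15, unadjusted p = 0.167 by edgeR) with the series as a covariate. In LP245/+ compared with LPfl/+, 3 were higher, against 4.07% of all genes, among them Deptor, an inhibitor of mTOR, at 0.40 (SE 0.13, adjusted p = 0.445 by edgeR) and 0.38 (SE 0.21, unadjusted p = 0.107 by edgeR) with the covariate. Ddit4l, the paralogue of Ddit4, had between 24.6 and 29.3 normalized counts on average in the 3 genotypes.

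Prkab1 is a beta subunit of AMPK, the type of subunit that ties the kinase to glycogen. Its counts were 566, 742 and 647 across LP+/+ livers, 734 and 613 across LPfl/+ and 565, 628 and 577 across LP245/+, and all genotypes overlapped. Log2 fold changes of -0.13 (SE 0.12) in LP245/+ and 0.055 (SE 0.13) in LPfl/+ against LP+/+ were measured by edgeR. LP245/+ compared with LPfl/+ gave -0.19 and, with the series as a covariate, -0.48 (SE 0.21, unadjusted p = 0.042 by edgeR), where 5.27% of all genes were below 0.05. The value with the covariate rests on LP+/+ replicate 1 as the only LP+/+ liver of the second series. The gene nearest to Prkab1 in pattern was Cybb, a subunit of the phagocyte NADPH oxidase, with a Pearson r of 0.98 over the 8 livers. The sum of the 7 Kupffer cell and macrophage markers was between 9772 and 11479 in LP+/+, between 9373 and 13129 in LPfl/+ and between 8251 and 9896 in LP245/+, and its part in the Prkab1 values was not tested. The second beta subunit, Prkab2, had 92.7, 84.9 and 97.2 normalized counts on average in LP+/+, LPfl/+ and LP245/+, and the catalytic subunits Prkaa1 and Prkaa2 had log2 fold changes of -0.067 and 0.042 in LP245/+ compared with LP+/+.

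Of the 13 genes of the AMPK list, 1 had an unadjusted p below 0.05 in LP245/+ compared with LP+/+ and was lower, against 2.38% of all genes. It was Stk11, the kinase LKB1 that activates AMPK. Stk11 had a log2 fold change of -0.26 (SE 0.10, adjusted p = 0.806 by edgeR) in LP245/+ and likewise -0.26 (SE 0.12, adjusted p = 0.724 by edgeR) in LPfl/+ against LP+/+, and the LP245/+ value had an unadjusted p of 0.106 by edgeR with the series as a covariate. Its counts were 1361, 1248 and 1173.5 across LP+/+ livers, 1068 and 1026 across LPfl/+ and 942, 1163 and 1024 across LP245/+. All livers with a recombined allele lay below the LP+/+ livers, although LP245/+ replicate 2 and LP+/+ replicate 3 were nearly equal. Livers did not overlap in 11.8% of all genes in LP245/+ compared with LP+/+, and in 25.1% in LPfl/+ compared with LP+/+.

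Tigar lowers fructose-2,6-bisphosphate and so slows glycolysis in favor of the pentose phosphate pathway. It had 269, 306 and 205 counts across LP+/+ livers, 208 and 259.5 across LPfl/+ and 203, 230.4 and 263 across LP245/+. The genotypes overlapped, with log2 fold changes of -0.15 (SE 0.18) in LP245/+ and -0.15 (SE 0.20) in LPfl/+ against LP+/+. The 95% interval of the LP245/+ value, from -0.55 to 0.24, leaves out a change of the size seen in Cdkn1a.

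Among 24 other genes of glycolysis and the pentose phosphate pathway, 2 were lower and 2 higher with an unadjusted p below 0.05 in LP245/+ compared with LP+/+, against 2.38% and 3.55% of all genes, and 0 passed the cutoff. The 4 are named after their values were seen. Pfkfb3 and Pfkfb1, bifunctional enzymes that make or break fructose-2,6-bisphosphate, which Tigar only lowers, had log2 fold changes of 0.84 (SE 0.24) and 0.41 (SE 0.14), with adjusted p = 0.795 for both by edgeR. Pfkfb4, of the same family, had -0.72 (SE 0.27), and Pfkl, liver phosphofructokinase, had -0.25 (SE 0.10). Pfkfb3 was counted at 221, 173 and 301 across LP+/+ livers, 239 and 207 across LPfl/+ and 500.1, 282 and 456 across LP245/+, and LP+/+ and LP245/+ overlapped in it.

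Gls2 (chr10:128194457-128210004, plus strand), the liver-type glutaminase, had 10375, 14402 and 10887 normalized counts across LP+/+ livers, 9688 and 7405 across LPfl/+ and 9692, 11333 and 10993 across LP245/+. Both LPfl/+ livers were below every other liver, although LPfl/+ replicate 1 and LP245/+ replicate 1 were nearly equal. The log2 fold change of LPfl/+ against LP+/+ was -0.47 (SE 0.18, 95% interval -0.87 to -0.067, adjusted p = 0.704 by edgeR), and the exact permutation test over the 5 livers, two-sided, gave p = 0.1, the smallest it can give. Once the library series entered the model it was -0.27 (SE 0.22, unadjusted p = 0.241 by edgeR). LP245/+ livers had -0.14 (SE 0.16) against LP+/+. The 8 hepatocyte markers had a median log2 fold change of -0.25 in LPfl/+ compared with LP+/+, and their part in the Gls2 value was not tested.

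Of 18 other tested genes of glutamine and glutathione metabolism, 5 were lower in LPfl/+ than LP+/+ at an unadjusted p below 0.05, against 2.67% of all genes in the lower direction, with a median of -0.24. The 5 lower genes, named after their values were seen, were Got1 (-0.80), Slc38a3 (-0.42), Glul (-0.38), Aldh4a1 (-0.27) and Gsr (-0.26), which transaminate aspartate, import glutamine, make glutamine, degrade proline and reduce glutathione. Counts in the higher direction are not reported here. The 8 hepatocyte markers had a median of -0.25 in LPfl/+ compared with LP+/+, and their part in these values was not tested. Both LPfl/+ livers were in the second library series, and values with the series as a covariate are not given for the 5 genes. In LP245/+ compared with LP+/+, 1 gene was lower at an unadjusted p below 0.05 by edgeR, against 2.38% of all genes in the lower direction. It was Gclc, which starts glutathione synthesis and had -0.42 (SE 0.15, adjusted p = 0.795 by edgeR).

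Fdxr (chr11:115268024-115277050, minus strand, GRCm38) passes electrons from NADPH to ferredoxin, which feeds iron-sulfur cluster assembly and the mitochondrial P450 enzymes of bile acid and steroid synthesis. Its normalized counts were 467, 433 and 389.6 across LP+/+ livers, 375 and 389.8 across LPfl/+ and 376, 343 and 349 across LP245/+. Every LP245/+ liver lay below every LP+/+ liver, and LPfl/+ lay between them in the mean but overlapped with both. The log2 difference of LP245/+ from LP+/+ was -0.26 (SE 0.11, 95% interval -0.50 to -0.024, unadjusted p = 0.034, adjusted p = 0.818 by edgeR). The exact permutation test of these 6 livers, two-sided, gave p = 0.1, the smallest it can give. The difference of LPfl/+ from LP+/+ was -0.16 (SE 0.12), and the difference between the genotypes with a recombined allele was -0.10 (SE 0.12, 95% interval -0.37 to 0.16).

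Over the genotypes coded 1, 2 and 3, Fdxr had a slope of -0.13 per step on the log2 scale (SE 0.051, adjusted p = 0.914 by edgeR). No metabolic target passed an adjusted p of 0.05 in this trend, against 0.0121% of all genes, and Fdxr alone of the 9 had an unadjusted p below 0.05, against 5.1% of all genes. In 8 of the 560 arrangements of the livers over the genotypes the slope was as large (exact permutation test, two-sided, p = 0.0143, not adjusted for the 9 genes). On normalized counts fitted over the 8 livers, its slope was -36.9 per step with an R2 of 0.677. In that fit 1 of the 10 metabolic targets was past the slope and R2 thresholds, which 0.506% of all 49585 genes passed in the descending direction. That share is taken over all genes, also those outside the 16496 kept by the low-count filter. On the averages of the 3 genotypes, which the methods of the study use, 5 were past the thresholds, with Sesn2, Tigar, Fdxr and Ddit4 descending and Sesn1 ascending. A fit to averages leaves out the spread between livers, and the R2 of Tigar was 0.796 on averages and 0.121 over the 8 livers. The share of all genes past the thresholds on averages was not counted, and the 0.506% does not apply to these 5. For Fdxr, the log2 ratio of the LP245/+ mean to the LP+/+ mean was -0.21 within the first series. Within the second series that of LPfl/+ to LP+/+ was -0.29. With the series as a covariate the LP245/+ value was -0.20 (SE 0.12, unadjusted p = 0.127 by edgeR). In that fit Sesn1, at 0.31, and Sesn2, at -0.54, had unadjusted p of 0.0405 and 0.040 by edgeR instead, against 6.65% of all genes below 0.05.

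Fdx1, the ferredoxin that Fdxr reduces, had 1291, 1242 and 1119 counts across LP+/+ livers, 1223 and 1349 across LPfl/+ and 1312, 1241 and 1257 across LP245/+, with a log2 fold change of 0.072 (SE 0.091). Fdx2, listed as Fdx1l, had too few counts to be tested. Of 14 tested genes of ferredoxins, iron-sulfur assembly and mitochondrial P450 enzymes, 0 had an unadjusted p below 0.05 by edgeR in any of the 3 comparisons of genotypes, and their median in LP245/+ compared with LP+/+ was 0.042.

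Sco2 (chr15:89371637-89373846, minus strand) delivers copper to cytochrome c oxidase. It was listed at 0 counts in all 8 livers, which allows up to 3 counts per liver. Of its 1253 exonic bases in the annotation, 856 are shared with Tymp on the same strand and 829 with Ncaph2 on the opposite strand, and 103, or 8.22%, lie outside the exons of other genes. Tymp had between 939 and 3022 counts and Ncaph2 between 1143 and 1557 in the same livers. How reads in shared exons were assigned is not given in the sources used here, so the level of Sco2 cannot be read from this table. Its paralogue Sco1 had 505, 533 and 486 counts across LP+/+ livers, 531 and 558 across LPfl/+ and 471, 581 and 535 across LP245/+, and 0 of 16 tested genes of cytochrome c oxidase assembly had an unadjusted p below 0.05 by edgeR in LP245/+ compared with LP+/+.

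Lpin1 (chr12:16535669-16610966, minus strand), a phosphatidate phosphatase induced by fasting, had the widest spread. It was counted at 4201, 4266 and 8329 across LP+/+ livers, at 4841 and 1903 across LPfl/+ and at 14094, 6192 and 7910.0 across LP245/+. All LP245/+ livers were above both LPfl/+ livers, whereas LP+/+ replicate 3 fell inside the LP245/+ range. LP245/+ compared with LPfl/+ gave a log2 fold change of 1.48 (SE 0.48, 95% interval 0.40 to 2.56, adjusted p = 0.454 by edgeR), and the exact permutation test of these 5 livers, two-sided, gave p = 0.1, the smallest it can give. Against LP+/+ the values were 0.76 (SE 0.41) in LP245/+ and -0.72 (SE 0.47) in LPfl/+, and both missed an unadjusted p of 0.05 by edgeR. The value of 0.76 became 0.33 without LP245/+ replicate 1 and 1.16 without LP+/+ replicate 3, and that of -0.72 became -0.22 without LPfl/+ replicate 2 and -1.56 without LPfl/+ replicate 1. With the series as a covariate, LP245/+ compared with LPfl/+ gave 0.90 (SE 0.72, unadjusted p = 0.24 by edgeR), a value that rests on the LP+/+ livers as the link between the series. Without the filter on low counts, Lpin1 passed the cutoff in LP245/+ compared with LPfl/+, with an adjusted p of 0.0171 by edgeR. Its log2 fold change was 1.48 with and without the filter. The share of all genes that passed without the filter was not counted.

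Lpin2, the other phosphatidate phosphatase abundant in liver, followed Lpin1 from liver to liver with a Pearson r of 0.92. It had 7141, 8817 and 13732 counts across LP+/+ livers, 9477 and 5446 across LPfl/+ and 16174, 11128 and 18409 across LP245/+. Lpin2 differed between LP245/+ and LPfl/+ by 1.03 (SE 0.33, adjusted p = 0.446 by edgeR) on the log2 scale without overlap of the livers, and by 0.37 (SE 0.46, unadjusted p = 0.44 by edgeR) with the series as a covariate. Lpin3 had -0.44 (SE 0.22) in the same comparison. Of 22 genes of phosphatidate, triglyceride and fatty acid metabolism, 0 had an unadjusted p below 0.05 by edgeR in LP245/+ compared with LP+/+, and 3, Lpin2 among them, were higher in LP245/+ compared with LPfl/+, against 4.07% of all genes.

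Per1, a clock repressor that glucocorticoids also induce, was among the 3 genes most like Lpin1 in pattern, with Mapk12 and Cblb, at Pearson r of 0.97, 0.97 and 0.97 over the 8 livers. These correlations are descriptions of the same libraries chosen as the highest of all genes, and the 3 highest for each other metabolic target lay between 0.92 and 0.98. Per1 had 214, 295 and 437 counts across LP+/+ livers, 304 and 124 across LPfl/+ and 646, 414 and 363 across LP245/+. Of 21 clock and glucocorticoid response genes, 3 were lower and 8 higher with an unadjusted p below 0.05 in LP245/+ compared with LP+/+, against 2.38% and 3.55% of all genes, with a median of 0.49, and 0 passed the cutoff. Dbp, a clock output factor, was counted at 23.2, 221 and 102 across LP+/+ livers, 64.8 and 51.5 across LPfl/+ and 667, 267 and 529.5 across LP245/+, with a log2 fold change of 2.09 (SE 0.59, adjusted p = 0.795 by edgeR) against LP+/+. Per2 had 0.54 (SE 0.14), and the clock activator Arntl and the repressor Cry1 had -1.05 (SE 0.29) and -0.85 (SE 0.18). These clock values are given without the series as a covariate, and all LP245/+ livers were in the first series. LP+/+ replicate 1, the only LP+/+ liver of the second series, was the lowest LP+/+ liver in Dbp and Per2 and the highest in Arntl and Cry1. Lpin1 had a Pearson r of 0.70 with Dbp and -0.76 with Arntl. Among the other metabolic targets, Fdxr had -0.62 with Dbp and 0.55 with Arntl, so such values were not particular to Lpin1. The hour at which the livers were taken is not given in the sources used here. The part of the clock genes in the Lpin1 and Fdxr values was not tested.

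**Figure D3:**
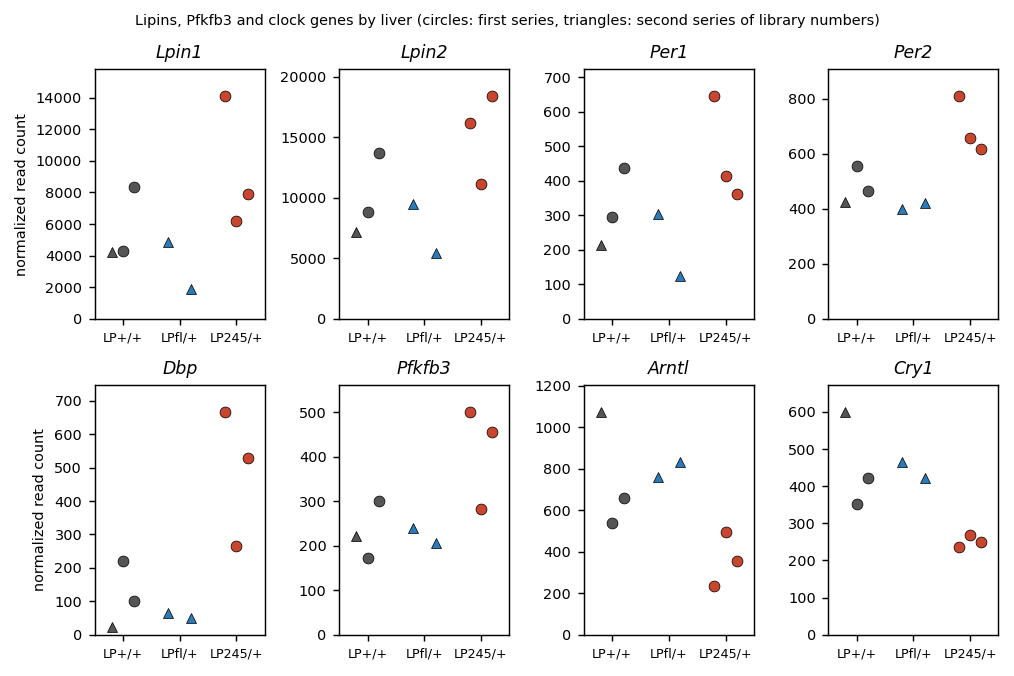
Normalized read counts (vertical axes, linear from 0) of Lpin1, Lpin2, Pfkfb3 and clock genes in each liver by genotype; circles are libraries of the first series of library numbers and triangles of the second. Lpin1, Lpin2 and Per1 share a low LPfl/+ replicate 2, and Dbp and Per2 are higher and Arntl and Cry1 lower in every LP245/+ liver than in the other livers.

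The metabolic targets can be set beside p53 targets with other roles. Of 24 targets of arrest, apoptosis, repair and feedback, all tested, 8 were lower and 0 higher with an unadjusted p below 0.05 in LP245/+ compared with LP+/+, against 2.38% of all genes in the lower direction, with a median of -0.23 and 1 gene, Cdkn1a, past the cutoff. Among the 9 metabolic targets the count was 1 lower and 0 higher, with a median of -0.14. Aen, a nuclease induced by p53 in apoptosis, had 365, 424 and 385 counts across LP+/+ livers, 288 and 330.2 across LPfl/+ and 226, 224 and 251 across LP245/+, with a log2 fold change of -0.73 (SE 0.12, adjusted p = 0.569 by edgeR). Gadd45a and Perp, of the same list, had 0.59 (SE 0.33) and 0.15 (SE 0.13). A further 15 tested p53 targets in metabolism, which include Pank1, Ulk2 and Dhrs3, had 0 lower and 0 higher by edgeR at that level, with a median of 0.0013. Whether the lists differ from one another was not tested.

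**Figure D4:**
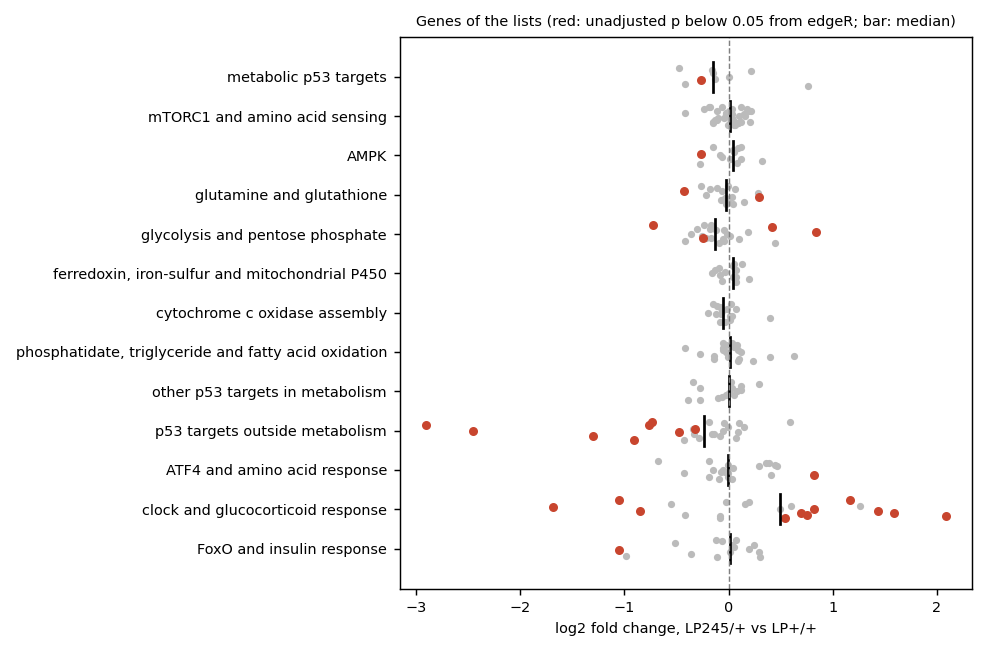
Log2 fold changes of LP245/+ compared with LP+/+ (horizontal axis) for the tested genes of each list (rows); each point is a gene, red where the unadjusted p from edgeR is below 0.05, and the bar is the median. Points of the metabolic targets and of their pathway lists mostly gather near 0, the red points of p53 targets outside metabolism lie to the left, and those of the clock list lie on both sides.

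Other regulators of the same genes were measured too. Of 21 genes of the ATF4 and amino acid response, 0 were lower and 1 higher with an unadjusted p below 0.05 in LP245/+ compared with LP+/+, against 3.55% of all genes in the higher direction. That gene, the hepatokine Fgf21, had 118, 117 and 126 counts across LP+/+ livers, 74.0 and 68.7 across LPfl/+ and 227, 190.0 and 217 across LP245/+. Its log2 fold changes were 0.82 (SE 0.15) in LP245/+ and -0.75 (SE 0.17) in LPfl/+ against LP+/+, and the genotypes did not overlap in any pair. Of 15 genes of the FoxO and insulin response, 15 had a negative log2 fold change in LPfl/+ compared with LP+/+, against 50.2% of all genes, with a median of -0.30, and 2 were lower at an unadjusted p below 0.05, against 2.67% of all genes. The hepatocyte markers had a median of -0.25 in that comparison, and their part in the FoxO list was not tested. In LP245/+ compared with LP+/+ the median of the list was 0.012. G6pc, the glucose-releasing enzyme of liver, had -1.05 (SE 0.36, adjusted p = 0.795 by edgeR) in LP245/+ compared with LP+/+, and -0.56 without LP+/+ replicate 1, the highest liver in it.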

How the data were processed

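RNA of 8 livers was measured with stranded total RNA libraries and 76-bp paired-end reads. The authors aligned reads to GRCm38 with STAR and deposited read counts per gene from STAR on a GENCODE annotation, not normalized. The release and the strand setting are not given in the sources used here. Symbols, positions and exon lengths came from GENCODE M21, with identifiers matched without their version, and promoters from RefSeq (GRCm38.p6).

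All livers entered 1 fit per model in edgeR 4.0.16 (quasi-likelihood test, TMM, filterByExpr, Benjamini-Hochberg adjustment over 16496 genes; R 4.3.3). Genes passed the cutoff with an adjusted p up to 0.05 and a log2 change of 1 or more either way. Slopes and R2 (above 0.6, slope below -1 or above 1) and liver values used counts divided by DESeq2 1.42.0 size factors. Permutation tests enumerated the livers on log2(normalized count + 1). A count of 3 was the floor. The scripts were tested on simulated counts. Members, lists and tests were chosen with earlier results of these data known.

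Named genes are the 10 members, Trp53 and Cdkn1a, the partners and paralogues Sco1, Fdx1, Fdx2, Lpin2, Lpin3, Prkab2, Prkaa1, Prkaa2 and Ddit4l, up to 2 lower and 2 higher genes per list by unadjusted p in LP245/+ compared with LP+/+, and the 3 nearest genes per member by Pearson r of log2 CPM. The result of 1 further partner is not reported here. Genes outside the rule are said to be named after their values were seen. Alternatives were DESeq2, other scalings and filters, fewer genotypes in the fit, the replicate block, the library series as a covariate, other regressions and each liver left out. All 8 columns matched a sample. The livers are separate samples, and p-values measure the spread between them.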

Additional observations from a re-analysis of the deposited data

Results flagged for a closer look

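Lpin1 stood out because the 2 genotypes with a recombined allele lay on opposite sides of the control mean. Both LPfl/+ livers were below and all 3 LP245/+ livers above this mean of 5599 normalized counts. The mean was raised by LP+/+ replicate 3, at 8329, while LP+/+ replicates 1 and 2 had 4201 and 4266. LPfl/+ replicate 1, at 4841, lay above both of these replicates. The log2 fold change of LP245/+ compared with LPfl/+ was 1.48 (SE 0.48), with an unadjusted p of 0.0122 and an adjusted p of 0.454 by edgeR. It was 0.90 (SE 0.72) once the library series entered the model. Lpin1 was 1 of 9 metabolic targets examined in this way, and clock genes and the series of libraries moved with it; their part in the value was not tested.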

How the results depend on the processing

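No metabolic target passed the cutoff under the alternatives, except without the filter on low counts. There 1 target, Lpin1, passed in LP245/+ compared with LPfl/+, with an adjusted p of 0.0171 by edgeR and a log2 fold change of 1.48. The share of all genes that passed in that setting was not counted. Leaving out 1 liver moved the median log2 fold change of LP245/+ compared with LPfl/+, -0.0091 with all livers, between -0.049 and 0.17 (without LPfl/+ replicate 1). The number of targets past slope and R2 was 5 on genotype averages (Sesn2, Tigar, Fdxr, Ddit4 and, ascending, Sesn1), where the share of all genes was not counted. It was 0 with library totals in place of size factors. With 1 liver left out it was between 1 and 2, where the second, without LP245/+ replicate 2, was Sesn1. Same-numbered livers did not deviate together (correlations from -0.082 to 0.034), so the numbers were not taken as pairs; the replicate block changed no call and gave medians of -0.14, -0.27 and 0.033. Single values changed sign. For Sesn3 in LP245/+ compared with LP+/+ they were -0.0095 with DESeq2, -0.0043 with its size factors in edgeR, -0.0077 with library totals, -0.0018 without the filter, -0.0015 with at least 10 counts in every liver, -0.0063 with only the 2 genotypes and -0.00059 with the replicate block. With the series as covariate, Sesn1 in LPfl/+ compared with LP+/+ was -0.013, and in LP245/+ compared with LPfl/+ Tigar was 0.064, Fdxr 0.083 and Ddit4 0.85; with the block Tigar was 0.033 and Ddit4 0.084, and with library totals Sesn1 was -0.031. With 1 liver left out, LP245/+ compared with LP+/+ ranged from -0.077 to 0.097 for Sesn3 and from -0.23 to 0.0062 for Gls2, LPfl/+ compared with LP+/+ from -1.13 to 0.20 for Ddit4 and from -0.092 to 0.16 for Prkab1, and LP245/+ compared with LPfl/+ from -0.049 to 0.14 for Sesn1, from -0.36 to 0.40 for Sesn2, from -0.16 to 0.17 for Tigar and from -0.68 to 0.65 for Ddit4. A lone LPfl/+ liver is assumed to vary like the other genotypes. The causes were not tested. Precision was lowest for Lpin1 and Ddit4, whose 95% intervals in LP245/+ compared with LP+/+ ran from -0.16 to 1.68 and from -1.29 to 0.34.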
